A study of Mus musculus with 12 samples.

Results

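The 9 genes described here were the coreceptor genes Cd4, Cd8a and Cd8b1 and the transcription factor genes Zbtb7b, Runx1, Runx3, Gata3, Tox and Satb1. They were chosen by name, with earlier results of these data known, from 22843 gene symbols in the mRNA table of mouse thymus. For each of them, the estimated counts of all transcripts that carry the symbol were added up in every library.

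A developing T cell in the thymus carries both CD4 and CD8 for a time and is then called double positive. CD4 binds class II and CD8 binds class I major histocompatibility molecules, and both bring the kinase Lck to the T cell receptor. After positive selection the cell keeps only CD4, as a helper T cell, or only CD8, as a cytotoxic T cell. Zbtb7b (ThPOK) holds the cell to the CD4 fate, Runx3 silences Cd4 and holds it to the CD8 fate, and Runx1 represses Cd4 before CD4 appears. Gata3 and Tox act upstream of Zbtb7b, and Satb1 is a chromatin organiser that helps to set the fate genes going.

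The samples were thymuses of male, wild-type C57BL/6 mice at 2 weeks (2W), 6 weeks (6W) and 3 months (3M), with 2 libraries per age. All animals were untreated, and the labels state no other difference between the groups than age. The whole organ was used and no cells were sorted, so that in these samples fewer cells of a type and less RNA per cell cannot be told apart. Libraries held 16519753 to 22553481 estimated mRNA counts.

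The promoter windows printed here are all those of the 9 genes that hold the binding letters of RUNX proteins, together with the single window of a coreceptor gene, since RUNX proteins and E proteins act on coreceptor genes through such letters. They come from RefSeq (GRCm38.p6) and run from 250 bases before to 50 bases after a transcription start. Capitals mark TGTGGT or its reverse complement ACCACA, which RUNX proteins bind, and CAGCTG, an E-box, which reads the same on both strands. The upstream start of Runx1 (chr16:92826025-92826324, minus strand) and that of Runx3 (chr4:135120395-135120694, plus strand) are shown with a start of Zbtb7b (chr3:89387622-89387921, minus strand) and the start of Cd8a (chr6:71373177-71373476, plus strand).
Runx1: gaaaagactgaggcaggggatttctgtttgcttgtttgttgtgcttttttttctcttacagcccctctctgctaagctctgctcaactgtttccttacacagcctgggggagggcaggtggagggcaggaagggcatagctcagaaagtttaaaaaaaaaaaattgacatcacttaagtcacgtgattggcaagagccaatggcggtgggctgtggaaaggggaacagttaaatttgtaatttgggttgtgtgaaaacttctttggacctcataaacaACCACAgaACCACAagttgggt
Runx3: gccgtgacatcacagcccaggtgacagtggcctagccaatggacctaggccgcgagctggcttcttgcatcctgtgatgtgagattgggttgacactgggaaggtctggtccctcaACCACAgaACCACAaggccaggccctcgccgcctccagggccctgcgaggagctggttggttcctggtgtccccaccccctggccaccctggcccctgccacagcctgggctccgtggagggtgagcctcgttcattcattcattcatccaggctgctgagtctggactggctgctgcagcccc
Zbtb7b: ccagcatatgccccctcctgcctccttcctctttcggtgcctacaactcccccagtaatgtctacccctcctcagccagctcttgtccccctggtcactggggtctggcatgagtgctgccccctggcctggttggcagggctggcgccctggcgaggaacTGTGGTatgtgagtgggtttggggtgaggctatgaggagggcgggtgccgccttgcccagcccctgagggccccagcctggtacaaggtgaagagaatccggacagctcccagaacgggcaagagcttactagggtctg
Cd8a: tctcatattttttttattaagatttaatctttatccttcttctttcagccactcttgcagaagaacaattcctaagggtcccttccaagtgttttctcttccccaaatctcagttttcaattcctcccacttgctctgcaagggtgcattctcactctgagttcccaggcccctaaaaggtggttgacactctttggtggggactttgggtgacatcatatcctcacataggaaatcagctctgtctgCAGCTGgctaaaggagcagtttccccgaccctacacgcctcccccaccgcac
In the windows of Runx1 and Runx3 the RUNX letters occurred as a pair, ACCACA followed by ACCACA, with starts 8 bases apart. Such a pair in either orientation was present in 7 of 32851 promoter windows, while single or repeated RUNX letters were present in 16.8% of them. The window of Zbtb7b held the RUNX letters once. The window of Cd8a held an E-box and no RUNX letters, and an E-box was present in 16.3% of all windows. Of the windows not printed, that of Gata3 held 1 E-box and a window of Satb1 held 2. The RefSeq table held 13 windows for 6 of the 9 genes, and no window for Cd4, Cd8b1 or Tox. These matches describe letters in the windows and show no binding.

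Per length, Satb1 was the most abundant of the genes. Its FPKM (fragments per 1000 bases of transcript and 1000000 fragments) averaged 851 over the 6 libraries, which placed it at rank 40 among all genes. Cd8a followed with 424 FPKM (rank 132), Cd8b1 with 382 FPKM (rank 145) and Cd4 with 240 FPKM (rank 212). The factors other than Satb1 were far lower, with 31.4 FPKM for Runx1, 23.9 FPKM for Tox, 19.4 FPKM for Gata3, 8.45 FPKM for Zbtb7b and 6.40 FPKM for Runx3.

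This order was the same in every library apart from 2 changes of neighbours. Cd8b1 lay above Cd8a in 6W replicate 2 (512 against 478 FPKM), and Tox lay above Runx1 in 6W replicate 1 (26.9 against 26.3 FPKM). The ranges of Cd8a and Cd8b1, of Cd8b1 and Cd4, of Runx1 and Tox, of Tox and Gata3 and of Zbtb7b and Runx3 overlapped over the 6 libraries. Satb1 stayed above all others, with a lowest value of 720 FPKM, and Cd4 stayed below Cd8a and Cd8b1 within every library. The fate factors Zbtb7b and Runx3 were the lowest in all 6 libraries.

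Ages were compared on gene sums with edgeR's quasi-likelihood F test in a single fit of the 6 libraries, with p-values adjusted by the Benjamini-Hochberg method over 14805 genes and called at an adjusted p under 0.05. The 3 comparisons share libraries and are therefore not independent. In 6W against 2W, 257 genes (1.74%) were called and none of the 9 genes described here. In 3M against 6W, 1 gene (0.00675%) was called and none of the 9. In 3M against 2W, 1630 genes (11%) were called, 459 of them lower (3.1%), and Cd4 and Cd8a were the 2 called of the 9, both lower. At an unadjusted p under 0.05 the counts were 3 of 9 (18.9% of all genes), 4 of 9 (14.3%) and 6 of 9 (27.3%). With DESeq2 they were 1 of 9 (6.37% of all genes with an adjusted p), 2 of 9 (3%) and 3 of 9 (14.9%, or 2200 genes) at an adjusted p under 0.05. None of the 9 genes passed the study threshold, a change over 2-fold with an unadjusted p under 0.05, while 5.36%, 2.11% and 9.35% of all genes did. The libraries of the ages compared did not overlap for 7 of the 9 genes in 6W against 2W (57.8% of all genes), for 5 of 9 in 3M against 6W (49.2%) and for 7 of 9 in 3M against 2W (51.8%), so that a lack of overlap was common in the whole table.

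Both coreceptor genes that were called, Cd4 and Cd8a, had their lowest levels at 3M. Cd4 stood at 956 and 923 counts per 1000000 (CPM, scaled by TMM, a factor that evens out composition between libraries) in the 2W libraries, at 819 and 847 CPM at 6W, and at 611 and 694 CPM at 3M. Each age lay below the one before without overlap. From 2W to 3M Cd4 fell by 0.53 on the log2 scale (SE 0.10, edgeR adjusted p = 0.0241). The 2 steps of this decline were not called on their own, with log2 fold changes of -0.17 (SE 0.10, adjusted p = 0.389) in 6W against 2W and -0.35 (SE 0.10, adjusted p = 0.250) in 3M against 6W.

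Cd8a, the chain that forms CD8 with a second alpha or with a beta chain, stood at 1609 and 1557 CPM at 2W, at 1481 and 1553 CPM at 6W, and at 1070.0 and 1142 CPM at 3M. The 3M libraries lay below all others, and the nearest 2W and 6W libraries were almost at the same level. Cd8a fell by 0.52 on the log2 scale from 2W to 3M (SE 0.09, adjusted p = 0.0179). The log2 fold change was -0.06 (SE 0.09, adjusted p = 0.736) in 6W against 2W and -0.46 (SE 0.09, adjusted p = 0.206) in 3M against 6W.

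The 2 calls depended on the fit. They were lost when only the 4 libraries compared were fitted (adjusted p = 0.0960 for Cd4 and 0.0754 for Cd8a), with limma on log2(FPKM + 1) (0.0706 and 0.0871), without 2W replicate 1 (0.106 and 0.0804), without 2W replicate 2 (0.106 and 0.0834), without 6W replicate 1 (0.0848 and 0.0673) and without 6W replicate 2 (0.0864 and 0.0677), and that of Cd4 also without 3M replicate 1 (0.0509). The log2 fold change stayed between -0.66 and -0.41 for Cd4 and between -0.60 and -0.44 for Cd8a in all of these fits, and DESeq2 gave adjusted p-values of 0.000401 and 4.84e-05.

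Cd8b1, the beta chain that makes the CD8 heterodimer of thymocytes, had another profile. Its level was 649 and 511 CPM at 2W, 713 and 807 CPM at 6W, and 430 and 555 CPM at 3M. The 6W libraries were above all others, and 2W and 3M overlapped. In 6W against 2W its log2 fold change was 0.39 (SE 0.17, adjusted p = 0.285), followed by -0.63 (SE 0.17, adjusted p = 0.242) in 3M against 6W and -0.24 (SE 0.17, adjusted p = 0.425) in 3M against 2W. The first of these was 0.25 without 2W replicate 2, and the last was -0.05 without 2W replicate 1, -0.39 without 2W replicate 2, -0.04 without 3M replicate 1 and -0.47 without 3M replicate 2. With DESeq2 the step from 6W to 3M was called (adjusted p = 0.0297), as was that of Cd8a (adjusted p = 0.00264).

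**Figure D1:**
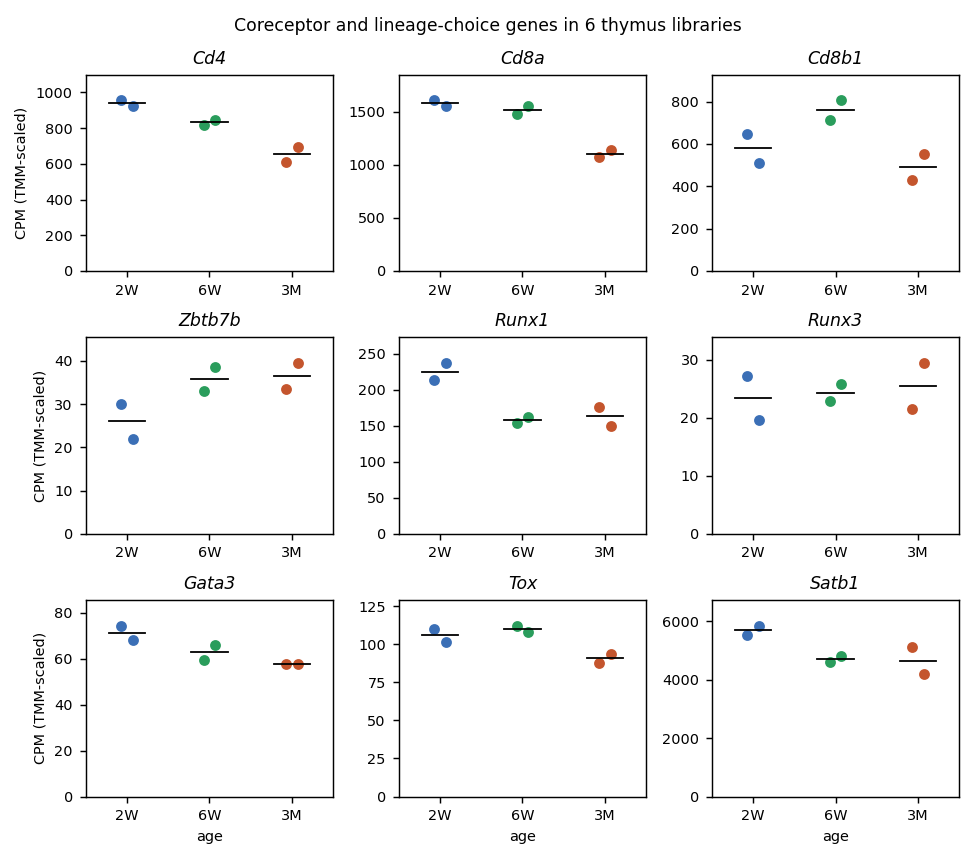
TMM-scaled CPM (y axis, from 0) of the 9 genes in the 2W, 6W and 3M libraries (x axis). Points are the 2 libraries per age and lines their mean. Cd4 and Cd8a are lowest at 3M, Cd8b1 is highest at 6W, and both 2W points of Runx1 (213 and 237 CPM) lie above the other 4.

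Of the factors of the CD4 fate, Zbtb7b had the lower values at the youngest age. It stood at 30.03 and 22.0 CPM at 2W, 33.0 and 38.7 CPM at 6W, and 33.6 and 39.5 CPM at 3M. Both 2W libraries lay below the other 4, and 6W and 3M overlapped. The log2 fold change was 0.46 (SE 0.18, unadjusted p = 0.0419, adjusted p = 0.247) in 6W against 2W and 0.49 (SE 0.18, adjusted p = 0.145) in 3M against 2W, and neither was called. Without 2W replicate 2 these were 0.28 and 0.29, and without 2W replicate 1 the first was 0.70. On Ensembl transcripts alone these were 0.99 (adjusted p = 0.335) and 0.41 (adjusted p = 0.602).

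Gata3, which is needed for CD4 cells to form and is also active in earlier thymocytes, stood at 74.4 and 67.9 CPM at 2W, 59.6 and 66.0 CPM at 6W, and 57.6 and 57.9 CPM at 3M. On CPM the ages followed each other downwards without overlap. On FPKM, 6W (17.98 and 19.31) and 3M (20.15 and 17.59) overlapped. In 3M against 2W the log2 fold change was -0.30 (SE 0.11, adjusted p = 0.142), and -0.13 with limma on log2(FPKM + 1). Tox, an HMG-box factor that CD4 cells require, stood at 110.0 and 102 CPM at 2W, 112 and 108 CPM at 6W, and 87.7 and 93.9 CPM at 3M. Its 3M libraries were the lowest. In 3M against 6W its log2 fold change was -0.28 (SE 0.11, unadjusted p = 0.0375, adjusted p = 0.321).

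The RUNX factors differed from each other in level and profile. Runx1 stood at 213 and 237 CPM at 2W, 153 and 162 CPM at 6W, and 176 and 150 CPM at 3M. Both 2W libraries were above the other 4. For 6W against 2W the fit gave a log2 fold change of -0.51 (SE 0.12, unadjusted p = 0.00519, adjusted p = 0.105) and for 3M against 2W one of -0.46 (SE 0.12, adjusted p = 0.0631). DESeq2 called both differences, with adjusted p-values of 0.00686 and 0.00554. The difference between 2W and 3M was also called with limma on log2(FPKM + 1) (adjusted p = 0.0426) and by edgeR without 3M replicate 1 (adjusted p = 0.0473).

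Runx3, the factor of the CD8 fate, stood at 27.2 and 19.6 CPM at 2W, 22.9 and 25.7 CPM at 6W, and 21.5 and 29.4 CPM at 3M. All ages overlapped. Its log2 fold changes lay between 0.05 and 0.12 with an SE of 0.21, so that at this depth and replicate spread a difference of that size was not detectable. On Ensembl transcripts alone the log2 fold change was -0.29 in 3M against 6W and -0.17 in 3M against 2W, so that its direction depended on the transcripts counted.

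Satb1 stood at 5529.7 and 5853 CPM at 2W, 4604 and 4804 CPM at 6W, and 5115 and 4190.1 CPM at 3M. Both 2W libraries lay above the other 4, and the 3M libraries spread on both sides of 6W. This depended on the transcripts and unit. In 6W against 2W the log2 fold change was -0.02 on Ensembl transcripts alone and 0.05 with limma on log2(FPKM + 1). On all transcripts it was -0.27 (SE 0.11, unadjusted p = 0.0413, adjusted p = 0.246) in 6W against 2W and -0.29 (SE 0.11, adjusted p = 0.145) in 3M against 2W. Without 3M replicate 1, the second of these was called (log2 fold change -0.42, adjusted p = 0.0394), and without 3M replicate 2 it was -0.19 (adjusted p = 0.243).

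**Figure D2:**
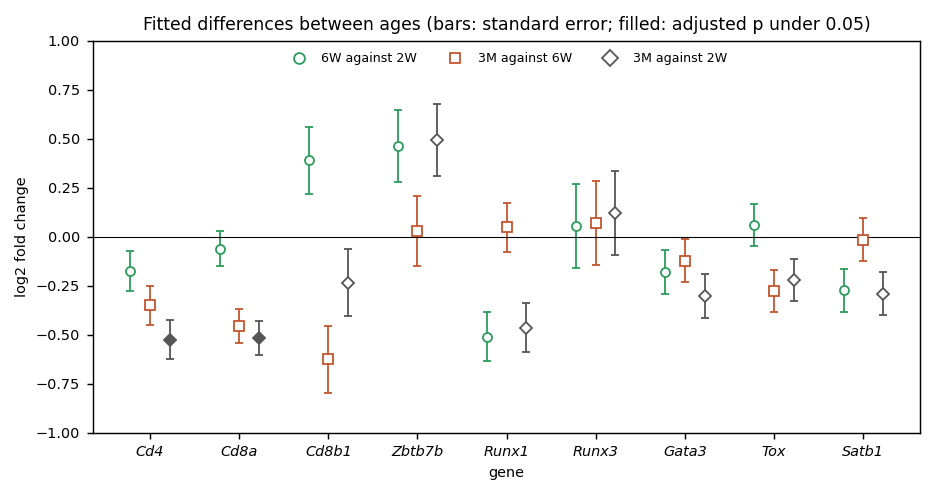
Fitted log2 fold change (y axis) of each of the 9 genes (x axis) in the 3 comparisons, with bars for the standard error. Filled symbols mark an adjusted p under 0.05, which are Cd4 (-0.53) and Cd8a (-0.52) in 3M against 2W.

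Ratios of FPKM within a library cannot be moved by any scaling between libraries. With 2 libraries against 2, the exact two-sided permutation test cannot go below p = 0.33, which every ratio without overlap between ages reached. Cd4 to Cd8a was 0.584 and 0.582 at 2W, 0.544 and 0.537 at 6W, and 0.561 and 0.597 at 3M. The ratio was slightly lower at 6W than at both other ages, and 2W and 3M overlapped although both genes fell between these ages. The mean log2 ratio differed by -0.01 between 3M and 2W (exact p = 1).

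The 2 CD8 chains were less even. Cd8a to Cd8b1 was 1.20 and 1.48 at 2W, 1.01 and 0.933 at 6W, and 1.21 and 1.001 at 3M. Thus the 2W libraries had the larger excess of the alpha chain over the 6W libraries, with a difference of -0.46 in mean log2 ratio between 6W and 2W (exact p = 0.33).

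Zbtb7b to Runx3, the factors of the 2 fates, was 1.10 and 1.06 at 2W, 1.36 and 1.52 at 6W, and 1.59 and 1.28 at 3M. Both later ages lay above 2W, by 0.42 and 0.40 in mean log2 ratio (exact p = 0.33 for each). Runx1 to Runx3 was 5.47 and 8.13 at 2W, 4.26 and 4.23 at 6W, and 5.28 and 3.27 at 3M. On FPKM it was higher at 2W than at 6W and at 3M. On estimated counts it was 7.81 and 12.1 at 2W and 8.19 and 5.10 at 3M, which overlapped.

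Relative to the CD3 chains (the mean log2 FPKM of Cd3d, Cd3e and Cd3g, the signalling chains of the T cell receptor), the coreceptor Cd4 was 1.19 and 1.33 at 2W, 0.979 and 0.988 at 6W, and 1.10 and 1.04 at 3M. Cd8a was 2.05 and 2.28, then 1.80 and 1.84, then 1.97 and 1.75. Both were highest at 2W. From 6W to 3M the ratio of Cd4 was higher without overlap (exact p = 0.33), although Cd4 itself had a log2 fold change of -0.35, while that of Cd8a overlapped. Zbtb7b relative to the CD3 chains was 0.0326 and 0.0262 at 2W, 0.0329 and 0.0395 at 6W, and 0.0542 and 0.0510 at 3M, each age above the one before (exact p = 0.33). The ratio moves with its denominator, and the log2 fold changes of Cd3e, Cd3d and Cd3g were 0.11, 0.22 and 0.21 in 6W against 2W and -0.33, -0.36 and -0.75 in 3M against 6W, beside medians of -0.01 and 0.02 over all genes. edgeR called none of them, while DESeq2 called Cd3g in 3M against 6W (adjusted p = 0.00607). From 6W to 3M the ratios of all 6 factors were higher without overlap, while on gene sums the log2 fold change of Zbtb7b was 0.03 and that of Runx3 0.07. The size also depended on the unit, as the difference in mean log2 ratio from 6W to 3M was 0.21 for Satb1 on FPKM and 0.46 on estimated counts, and 0.51 and 0.36 for Gata3.

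**Figure D3:**
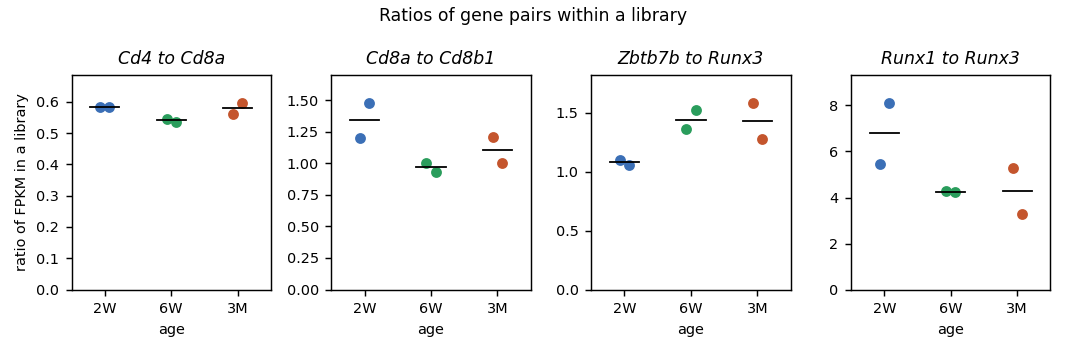
Ratios of FPKM within a library (y axis, from 0) at the 3 ages (x axis), with points for libraries and lines for their mean. Cd4 to Cd8a stays between 0.537 and 0.597, while Zbtb7b to Runx3 is 1.06 and 1.10 at 2W and 1.28 or more afterwards.

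The 9 genes had 40 transcripts in the table, 8 of them assembled ones (names that begin with TCONS) beside Ensembl transcripts. After the filter on low counts, 30 were tested with 35277 transcripts in all. No transcript was called at an adjusted p under 0.05 in any comparison (0% of all transcripts). At an unadjusted p under 0.05 there were 1 of 30 (7.71% of all transcripts) in 6W against 2W, 9 of 30 (6.91%) in 3M against 6W and 5 of 30 (11%) in 3M against 2W, and DESeq2 called 1 (5.14% of all transcripts with an adjusted p), 7 (4%) and 5 (8.94%) of them at an adjusted p under 0.05. The study threshold was passed by 1 of 30 (4.28%), 2 of 30 (3.34%) and 1 of 30 (6.1%).

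The coreceptor genes were simple. Cd8b1 and Tox had a single transcript each (ENSMUST00000065248 and ENSMUST00000039987). Cd4 was carried by ENSMUST00000024044, with 99.1% of its counts. Cd8a was divided between ENSMUST00000066747 (53.2%) and ENSMUST00000172321 (46.8%). The first took 56.5% and 55.5% at 6W and 50.04% to 52.1% at 2W and 3M. In 6W against 2W their log2 fold changes were 0.13 and -0.17, and edgeR called neither (adjusted p = 0.801 and 0.745). Gata3 was carried by ENSMUST00000102976, with 93.4%, but the assembled TCONS_00068164 took 15.9% in 2W replicate 2 and 20.6% in 3M replicate 1.

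In Runx1 the difference between ages was uneven between transcripts. ENSMUST00000113956 held 24.3% of the counts of the gene and passed the study threshold in 6W against 2W. Its estimated counts were 951 and 1323 at 2W, 565 and 624 at 6W, and 680 and 799 at 3M. It took 28.2% and 34.2% of the counts of Runx1 at 2W, 17.9% and 16.99% at 6W, and 23.2% and 23.9% at 3M. The shares of the ages did not overlap.

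The log2 fold change of ENSMUST00000113956 in 6W against 2W was -1.31 (SE 0.19, unadjusted p = 0.00102), but it was not called by edgeR (adjusted p = 0.347), while DESeq2 gave an adjusted p of 2.58e-08. The main transcript ENSMUST00000023673, with 74.6% of the counts, had a log2 fold change of -0.16 (SE 0.11, adjusted p = 0.752).

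Satb1 had 4 transcripts with at least 10% of its counts. The assembled TCONS_00053975 took 38.8%, ENSMUST00000129667 took 34.1%, ENSMUST00000144331 took 11.6% and ENSMUST00000169480 took 11.2%. TCONS_00053975 held 40.4% and 45.6% at 2W, 30.2% and 32.7% at 6W, and 50.8% and 35.0% at 3M. Its share was therefore highest in 3M replicate 1 and lowest at 6W.

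Counts over FPKM gave TCONS_00053975 an effective length 6.90 times that of ENSMUST00000129667, and per length it held 7.34% to 16.6% of the FPKM of Satb1. On Ensembl transcripts alone, the log2 fold change of Satb1 was -0.02 in place of -0.27 in 6W against 2W (0.05 with limma on log2(FPKM + 1)), and -0.28 in place of -0.02 in 3M against 6W. The minor transcript ENSMUST00000133574 (2.01% of the counts) passed the study threshold in 3M against 6W with a log2 fold change of -1.34 (SE 0.30, adjusted p = 0.675) and in 3M against 2W with -1.06 (SE 0.30, adjusted p = 0.307). It had 1788 and 1812 counts at 2W, 2522 and 3144 at 6W, and 632 and 1473 at 3M, with all ages apart.

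Zbtb7b had 11 transcripts, 9 of them with any count, of which TCONS_00078109 (32.5%), ENSMUST00000107433 (18.8%), TCONS_00078108 (15.1%), TCONS_00078110 (13.6%) and ENSMUST00000029677 (11.3%) held at least 10%. The shares changed between libraries of the same age. TCONS_00078108 took 30.9% in 6W replicate 1 and 11.4% in 6W replicate 2, and 0.151% and 26.3% in the 3M libraries. ENSMUST00000029677 passed the study threshold in 3M against 6W (log2 fold change 2.07, SE 0.76, adjusted p = 0.719) on 51.3 and 22.2 estimated counts at 6W and 155 and 122 at 3M. The assembled transcripts overlap Ensembl ones, so the split of counts between them is uncertain.

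Runx3 was divided between ENSMUST00000056977 (47.8%) and the assembled TCONS_00082894 (43.3%). The share of the latter ranged from 12.8% in 2W replicate 2 to 56.6% in 3M replicate 2.

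**Figure D4:**
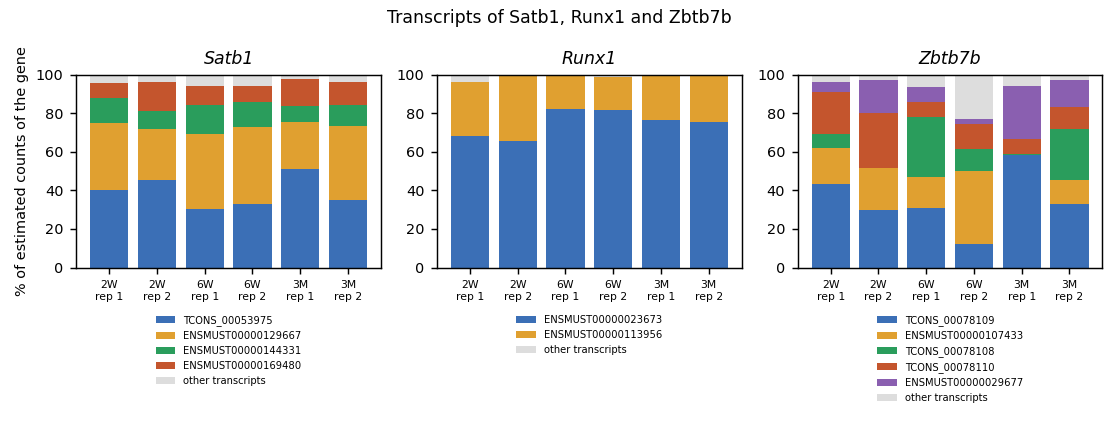
Share of each transcript in the estimated counts of Satb1, Runx1 and Zbtb7b (y axis, % of the counts of the gene) in the 6 libraries (x axis), with transcripts under 10% of the gene joined in grey. ENSMUST00000113956 of Runx1 takes 28.2% and 34.2% at 2W and 16.99% to 23.9% later, while the Zbtb7b shares differ between libraries of the same age.

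The same libraries were also searched for circular RNAs (circRNAs), which are joined back to front at a splice junction and counted by the reads across it. Of the 6300 circRNAs in that table, 42 were assigned to the genes described here, 29 to Satb1, 5 to Runx1, 4 to Cd4 and 4 to Tox. Among them, novel_circ_005071 at Cd4 and novel_circ_002643, novel_circ_002650, novel_circ_002634 and novel_circ_002656 at Satb1 are marked antisense and lie on the opposite strand. They had 2 to 9 counts each over the libraries, which the sums below include. No circRNA was listed for Cd8a, Cd8b1, Zbtb7b, Runx3 or Gata3 in a table whose smallest total over the libraries is 2 counts. With 5228 junction counts, Satb1 had more than any other gene of the table, followed by Themis with 2724.

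Satb1 took 5.98% (95% Wilson interval 5.55% to 6.45%) and 4.25% (3.89% to 4.64%) of all junction counts at 2W, 6.63% (6.29% to 6.998%) and 6.36% (6.04% to 6.69%) at 6W, and 4.93% (4.55% to 5.35%) and 6.06% (5.69% to 6.45%) at 3M. The intervals cover counting error only. The 6W libraries had the higher shares, and the 2 libraries of 2W and of 3M differed from each other by more than their intervals.

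The most counted circRNA of the whole table was novel_circ_002652 of Satb1 (chr17:51803431-51809287, minus strand, 673 bases after splicing). The table names no build for these coordinates. It had 307 and 248 junction counts at 2W, 769 and 867 at 6W, and 313 and 568 at 3M. The other abundant circRNA of Satb1, novel_circ_002641 (chr17:51767892-51809287, 1609 bases after splicing), had 254 and 158, then 357 and 403, then 178 and 278 counts. Both share the upstream edge, at which 6 circRNAs began that together held 92.9% of the Satb1 junction counts.

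Of 2779 circRNAs tested with edgeR, a test added after these counts were seen, 23 were assigned to the genes described here. None of the 23 was called in 6W against 2W (0% of all), in 3M against 6W (0.288% of all) or in 3M against 2W (0.036% of all), and DESeq2 called none of them either (0%, 0.072% and 0% of all). At an unadjusted p under 0.05 there were 5 (4.61% of all), 2 (5%) and 0 (4.32%). Of the 5 in 6W against 2W, 4 were higher at 6W, namely novel_circ_002652, novel_circ_002636 and novel_circ_002635 of Satb1 and novel_circ_003988 of Tox. The fifth, the intronic novel_circ_002657 of Satb1, went the other way, with 4 and 10 junction counts at 2W, 0 and 1 at 6W, and 6 and 2 at 3M (unadjusted p = 0.00171, adjusted p = 0.569). These circRNAs are named after their values were seen.

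For novel_circ_002652 the log2 fold change in 6W against 2W was 0.98 (SE 0.23, adjusted p = 0.0515), beside a median of 0.36 over all circRNAs tested. Scaled by total junction counts alone, the log2 fold change was 0.66 (adjusted p = 0.968) beside a median of 0.06, and with DESeq2 it was 0.73 (adjusted p = 0.539) beside a median of 0.12. In 3M against 6W it was -0.56 (SE 0.22, adjusted p = 0.840) beside a median of -0.33, and the other scalings gave -0.30 and -0.33. Library totals of junction counts moved the same way, from 10663 and 11117 at 2W to 18740 and 21914 at 6W and back to 11125 and 15396 at 3M. Their part in the result was not tested.

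Per 1000 estimated mRNA counts of Satb1, all its circRNAs together had 7.29 and 4.94 junction counts at 2W, 13.1 and 12.8 at 6W, and 6.46 and 9.97 at 3M. Both 6W libraries were above the other 4 (exact two-sided permutation p = 0.33 in 6W against 2W, the smallest possible). All circRNAs of the table together, per 1000 estimated mRNA counts of the library, had 0.645 and 0.653 junction counts at 2W, 0.916 and 0.972 at 6W, and 0.663 and 0.707 at 3M, so that 6W was the highest age over all genes as well (log2 ratio of 6W to 2W 0.54, and 1.08 for Satb1). Per 1000 counts of Ensembl transcripts alone the values of Satb1 were 12.2 and 9.09 at 2W, 18.8 and 19.01 at 6W, and 13.1 and 15.4 at 3M. The log2 ratio of 6W to 2W was 0.82 in place of 1.08. The 6W libraries were again above the other 4. Linear Satb1 CPM was lower at 6W than at 2W without overlap when all transcripts were counted, with a log2 fold change of -0.27. On Ensembl transcripts alone it was -0.02 (edgeR adjusted p = 0.924).

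**Figure D5:**
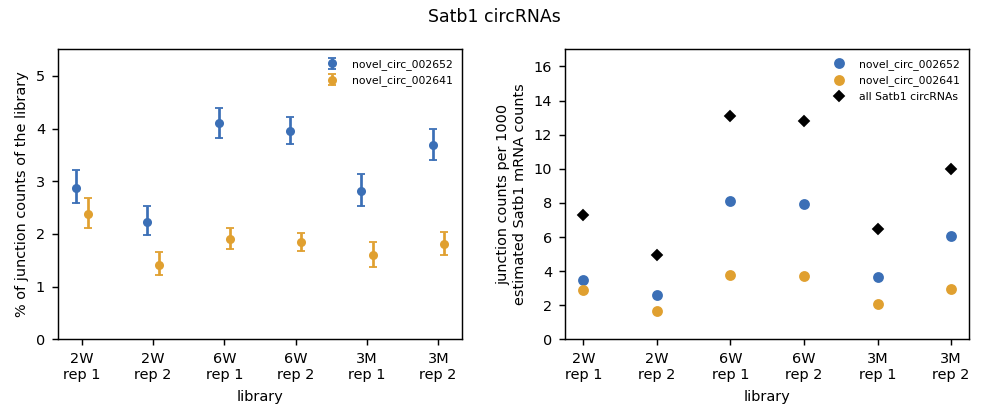
Left, share of the junction counts of a library (y axis, %) taken by the 2 most counted Satb1 circRNAs, with 95% Wilson intervals as bars. Right, junction counts per 1000 estimated Satb1 mRNA counts, with diamonds for all Satb1 circRNAs, which are 13.1 and 12.8 at 6W and 4.94 to 9.97 in the other libraries.

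Tox gave 1 circRNA with more than a few counts, novel_circ_003988, with 6 and 0 junction counts at 2W, 20 and 9 at 6W, and 3 and 10 at 3M. Runx1 circRNAs totalled 2 to 11 counts per library and those assigned to Cd4 2 to 6. The Cd4 totals include the antisense novel_circ_005071, with 1 count in 6W replicate 1 and 2 in 3M replicate 1.

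Other transcription factors of coreceptor expression and lineage choice were read from a list of 23 genes, all of which were tested. edgeR called none in 6W against 2W or 3M against 6W, where 6 and 4 had an unadjusted p under 0.05 (18.9% and 14.3% of all genes did) and DESeq2 called 1 and 2 (6.37% and 3% of all genes). In 3M against 2W, 3 fell (3.1% of all genes did), 1 rose (7.91% of all genes did) and 19 were not called, while 9 had an unadjusted p under 0.05 (27.3% of all genes) and DESeq2 called 6 (14.9%). The list had a median log2 fold change of -0.13 beside -0.03 over all genes. The 3 that fell are known as factors of T cell development.

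Bcl11b, which holds T cell identity, had 1054 and 1119.8 CPM at 2W, 880 and 889 CPM at 6W, and 737 and 691 CPM at 3M (log2 fold change of 3M against 2W -0.61, SE 0.09, adjusted p = 0.0131). Tcf12 (HEB), an E protein, had 602 and 601 CPM, then 495 and 492 CPM, then 405 and 398 CPM (-0.58, SE 0.09, adjusted p = 0.0137). Ikzf3 (Aiolos), a zinc finger factor of the Ikaros family, had 652 and 622 CPM, then 532 and 517 CPM, then 410.4 and 400.4 CPM, and fell by 0.65 on the log2 scale (SE 0.09, adjusted p = 0.0116). In all 3 genes each age lay below the one before without overlap.

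Id2, an inhibitor of E proteins, rose from 18.3 and 22.4 CPM at 2W over 32.6 and 32.4 CPM at 6W to 41.1 and 34.7 CPM at 3M (log2 fold change 0.90, SE 0.15, adjusted p = 0.0167). Its ages did not overlap.

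Of 16 chromatin partners at the coreceptor loci and of 16 genes for signals that act on the choice, 1 each was called in 3M against 2W, beside 3.1% of all genes called lower and 7.91% called higher. An unadjusted p under 0.05 was found there for 3 genes of each list (27.3% of all genes), and DESeq2 called 2 and 1 (14.9% of all genes). Smarca4 (Brg1), the ATPase of the BAF remodelling complex, had 601 and 476 CPM at 2W, 466 and 485 CPM at 6W, and 315 and 377 CPM at 3M, and fell by 0.64 on the log2 scale (SE 0.15, adjusted p = 0.0424), and the median of the list was -0.19. Il7r, the receptor of interleukin 7 and the signal gene called, had 34.4 and 38.5 CPM at 2W, 70.4 and 55.3 CPM at 6W, and 85.3 and 71.4 CPM at 3M (log2 fold change of 3M against 2W 1.10, SE 0.16, adjusted p = 0.0126). The list median was -0.10. In 6W against 2W and 3M against 6W edgeR called none of either list, where 1 and 2 chromatin partners and 1 and 0 signal genes had an unadjusted p under 0.05 (18.9% and 14.3% of all genes), and DESeq2 called 0 and 1 chromatin partners and 1 and 0 signal genes (6.37% and 3% of all genes).

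Of 12 genes of cells after the choice, 3 rose from 2W to 3M (7.91% of all genes did) and none fell. Itgae (CD103), an integrin of CD8 and dendritic cells, had 20.4 and 16.1 CPM at 2W, 42.3 and 45.6 CPM at 6W, and 39.8 and 41.7 CPM at 3M, and rose by 6W (log2 fold change 1.27, SE 0.14, adjusted p = 0.0231). Ccl5, a chemokine of cytotoxic cells, had 5.63 and 4.72 CPM at 2W, 10.1 and 12.6 CPM at 6W, and 11.5 and 11.2 CPM at 3M, and likewise rose by 6W (1.14, SE 0.19, adjusted p = 0.0461). Nkg7, a granule membrane protein, had 6.26 and 5.70 CPM at 2W, 11.4 and 11.3 CPM at 6W, and 12.4 and 15.2 CPM at 3M, and rose from 2W to 3M (1.21, SE 0.17, adjusted p = 0.0117). edgeR did not call the other 9 in 3M against 2W, and the median was 0.57. In that comparison 7 of the 12 had an unadjusted p under 0.05 (27.3% of all genes), and DESeq2 called 5 (14.9%). In 6W against 2W and 3M against 6W edgeR called 2 and 0 (1.74% and 0.00675% of all genes). There, 5 and 3 had an unadjusted p under 0.05 (18.9% and 14.3%), and DESeq2 called 5 and 1 (6.37% and 3%). Il2ra, with 29.3% of the summed CPM of the list, had log2 fold changes of -0.61 and 0.52 in these comparisons. edgeR called neither, while DESeq2 called both (adjusted p = 0.00263 and 0.0355).

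Markers of the cells in the thymus moved beside the coreceptors. Of 9 genes listed for double-positive thymocytes, 3 fell from 2W to 3M (Arpp21, Ptcra and Rag1, beside 3.1% of all genes). None rose, and the median log2 fold change was -0.43. The list holds Ptcra and the CD3 chains Cd3d, Cd3e and Cd3g, which are not confined to double-positive cells. None of the 9 was at 0 in every library. Their summed level was 12738 and 14528 CPM at 2W, 11657 to 11834 CPM at 6W, and 10369.8 to 10565 CPM at 3M. Rag1 alone made up 72.9% of this sum, and the other 8 genes summed to 3335 and 3349.9 CPM at 2W, to the higher values of 3495 and 3570.1 CPM at 6W, and to 2849.9 and 2828 CPM at 3M. Rag1, a component of the recombinase of the antigen receptor genes, fell by 0.43 on the log2 scale (SE 0.10, adjusted p = 0.0359), and Ptcra, the alpha chain of the pre-T cell receptor, by 0.85 (SE 0.17, adjusted p = 0.0290).

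Of 6 genes of cycling cells, 5 fell from 2W to 3M (3.1% of all genes), with a summed level of 3593 and 3622 CPM at 2W, 2894 to 2940.0 CPM at 6W, and 1941 to 2432 CPM at 3M. Of 7 genes of mature thymocytes, Il7r and the class I gene H2-K1, which has close paralogs, rose (7.91% of all genes) and DESeq2 called 5, with a summed level of 653 and 692 CPM at 2W, 1060.3 to 1069.8 CPM at 6W, and 1151 to 1210.5 CPM at 3M. H2-K1 made up 54.7% of this sum, and the other 6 genes summed to 353 and 354 CPM at 2W, 499 and 477 CPM at 6W, and 478 and 479 CPM at 3M, with no further rise after 6W. Their part in the results for Cd4 and Cd8a was not tested.

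Of 10 genes of dendritic cells and macrophages, which can carry Cd4 or Cd8a RNA, 7 rose from 2W to 3M (7.91% of all genes) and none fell. Their summed level was 295 and 325 CPM at 2W, 599 to 644 CPM at 6W, and 676 to 681 CPM at 3M, opposite in direction to Cd4 and Cd8a. Of 5 adipocyte genes 4 rose (7.91% of all genes), with a summed level of 32.5 and 35.4 CPM at 2W and 104 and 189 CPM at 3M. Of the B cell, thymic epithelium, and fibroblast and vessel lists, 0 of 5, 2 of 8 and 2 of 7 were called in 3M against 2W (11% of all genes). An unadjusted p under 0.05 was found for 0, 3 and 5 of them (27.3% of all genes), and DESeq2 called 0, 3 and 3 (14.9%). By edgeR, Ly75 rose and Foxn1 fell in the epithelium list, and Pdgfra rose and Col1a1 fell in the fibroblast and vessel list. In the same comparison DESeq2 called 5 of 9 double-positive, 5 of 7 mature, 6 of 6 cycling, 8 of 10 dendritic cell and macrophage and 5 of 5 adipocyte genes. Of 5 red blood cell genes none was called by edgeR or DESeq2 in 3M against 2W, nor had any an unadjusted p under 0.05, but they summed to 2160 CPM in 3M replicate 2 and to 401 to 814 CPM elsewhere. No marker of these lists was at 0 in every library, and their part in the results was not tested.

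The genes whose profile over the 6 libraries was most like those of the coreceptors and Zbtb7b were found among 7520 genes with a mean of at least 20 CPM, by the root mean square difference between centred log2 CPM profiles. For Cd4 they were Tuba1c, an alpha-tubulin (0.0225), Kif22, a kinesin (0.0358), and Ppp6r2, a subunit of protein phosphatase 6 (0.0360). For Cd8a they were Cdca8, of the chromosomal passenger complex (0.0400), Bcl2l1, which encodes the survival protein Bcl-xL (0.0434), and Ppp6r2 (0.0446). Cd4 and Cd8a were also close to each other (0.0574). Tuba1c has near-identical paralogs with which the counting may share reads.

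Cd8b1 was nearest to other genes than Cd8a was. They were Rpl32, a ribosomal protein gene (0.0447), Ubb, a ubiquitin gene (0.0521), and Tpt1 (0.0575), against 0.224 between Cd8b1 and Cd8a. Ubb stood at 1182 and 832 CPM at 2W, 1240.4 and 1379 CPM at 6W, and 716 and 975 CPM at 3M, so that it shared with Cd8b1 the higher 2W replicate 1 and the higher 3M replicate 2. Ribosomal protein and ubiquitin genes have near-identical copies, so that their counts are uncertain. For Zbtb7b the nearest were Ralgds (0.0566), Gimap7, a GTPase of lymphocytes (0.0654), and Rhof (0.0690).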

How the data were processed

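RNA of 6 thymus libraries was depleted of ribosomal RNA and sequenced with strand. The authors deposited estimated counts and FPKM per mRNA transcript, and counts and RPM of circRNA junctions, with RPM taken per library. The program behind the estimated counts is not given in the sources used here. The submitters' processing notes name Bowtie 0.12.2 and mm8, with no role. All 42 circRNAs described lie inside their gene in RefSeq (GRCm38.p6).

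Estimated counts were summed by symbol with letter case ignored (this joined 665 genes, none described here), rounded, and filtered with filterByExpr by age. Tests used edgeR 4.0.16 (TMM, quasi-likelihood F test, R 4.3.3), with DESeq2 1.42.0 and limma 3.58.1 as alternatives. Only the edgeR fit of gene sums in 6W against 2W was run on simulated data. It recovered 63% of 2-fold and 94% of 4-fold changes, with 100 genes each, and called 11 unchanged genes. circRNAs needed 6 counts. An edgeR p-value rests on the spread between the 2 libraries of an age, pooled over the ages fitted and partly shared between genes. The study calls these libraries biological replicates. FPKM was used for levels and ratios.

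Named are the 9 genes and, of the lists other than cell markers, the genes called (at most 8 per list). Also named are the 3 genes most like a coreceptor or Zbtb7b, and transcripts with 10% of their gene or past the study threshold. Cell markers called are named in part, and Il2ra was named after its values were seen. Genes and lists were chosen with earlier results of these data known. A gene of the lists is not reported here and was left out of their counts. The miRNA and lncRNA tables were not used here.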

Additional observations from a re-analysis of the deposited data

How the results depend on the processing

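Over the 3 comparisons of gene sums (6W against 2W, 3M against 6W and 3M against 2W), 257, 1 and 1630 genes were called, with 0, 0 and 2 of the 9 genes described. DESeq2 called 888 genes (1 of the 9) in 6W against 2W, 341 genes (2 of the 9) in 3M against 6W and 2200 genes (3 of the 9) in 3M against 2W. Scaling by total counts gave 395 genes in 6W against 2W, and no filter 467 and 19 genes in the first 2 comparisons. With case-distinct symbols there were 124 and 0, on Ensembl transcripts 4, 0 and 922, with only the 4 libraries compared 662, 0 and 663 (0 of the 9 in the last), and with limma 6 in 3M against 6W and 1 of the 9, Runx1, in 3M against 2W. Leaving out a library gave 0 to 658, 0 to 11 and 239 to 1741 genes, with 0 to 3 of the 9 in 3M against 2W. Among transcripts, DESeq2 called 1779, 1384 and 3093 (1, 7 and 5 of the genes described), and no filter 6 in 3M against 2W. Among circRNAs, total counts gave 1 and 4 in the first 2 comparisons, and DESeq2 2 in 3M against 6W and 0 in 3M against 2W. The cause of these differences was not tested.

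The labels do not say whether the replicate numbers pair the libraries. Deviations of same-numbered libraries correlated at -0.10 for 2W and 6W, -0.27 for 2W and 3M and 0.36 for 6W and 3M. With 2 libraries per age, these values cannot settle it. With the replicate number as a block, 5, 0 and 742 genes were called and 0 of the 9, with adjusted p-values of 0.0731 for Cd4 and 0.0628 for Cd8a in 3M against 2W.

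Small log2 fold changes turned in sign. For 6W against 2W these were Cd8a with total counts (0.0052) and limma (0.019), Satb1 with limma (0.052), Runx3 without 2W replicate 2 or 6W replicate 2 (-0.14 to 0.31 over libraries left out) and novel_circ_002641 with total counts (-0.023). For 3M against 6W they were Zbtb7b (-0.58) and Runx3 (-0.29) on Ensembl transcripts, Gata3 with limma (0.014), and with single libraries left out Zbtb7b (-0.15 to 0.15), Runx3 (-0.23 to 0.28), Runx1 (-0.063 to 0.10) and Satb1 (-0.16 to 0.068). For 3M against 2W it was Runx3, on Ensembl transcripts (-0.17) and with single libraries left out (-0.16 to 0.38). With 2 libraries per age the spread between libraries limits all values, and junction counts under about 10 limit most circRNAs.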
